A study of Mus musculus with 2 samples.

Results

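The genes described here use, carry or sense ketone bodies: Bdh1, Oxct1 and Acat1 encode enzymes, Slc16a1 and Slc16a3 carriers, and Hcar2 a receptor. They were taken by symbol and are 6 of the 28692 genes listed in the count matrices, with 1 gene to each symbol.

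Ketone bodies (3-hydroxybutyrate and acetoacetate) are made in the liver from fatty acids when carbohydrate is scarce, and other tissues burn them. Inside a mitochondrion, 3-hydroxybutyrate is oxidised to acetoacetate, acetoacetate is activated with coenzyme A taken from succinyl-CoA, and the product is split into acetyl-CoA for the citrate cycle. Monocarboxylate carriers move ketone bodies and lactate across the cell membrane together with a proton, and a receptor on the surface of fat cells and myeloid cells senses 3-hydroxybutyrate and nicotinic acid.

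The cells were leukocytes (CD45+) from the adipose tissue of adult C57BL/6 mice with the wt genotype, restricted to cells resident in the tissue by intravenous labelling. One library came from mice fed chow, labelled control, and the other from mice fed a ketogenic diet, labelled KD, for 1 week. Each diet is 1 library made with a 10x Genomics protocol, so differences between diets have no replicate check, and intervals below cover counting error only. How many mice each library pools was not given in the sources used here.

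The chow library held 4545 cells with 21570910 unique molecular identifiers (UMIs, 1 for every transcript molecule caught) and a median of 3469 per cell. The ketogenic library held 5614 cells with 26041785 UMIs and a median of 3461.5. Of these cells, 4458 and 5559 were in the authors' 13 clusters. The leukocyte gene Ptprc, which encodes CD45, had a UMI in 82.6% of clustered chow cells and 82.3% of clustered ketogenic cells, and 8 adipocyte and stromal markers summed to between 13.1 and 138 CPM (UMIs scaled to a common total) in a cluster. The libraries shared 41 cell barcodes, of which 3 were in the same cluster in both. Cluster 3 was called macrophage-like and held 19.3% of chow cells but 2.61% of ketogenic cells. Cluster 8 was left unnamed, with Retnla, Fcrls and Lyz1 among its leading genes, and held 8.12% and 0.845%. Cluster 4, with CD3 and Ly49 genes, was also left unnamed. The others were called ILC2-like (group 2 innate lymphoid, cluster 0), NK-like (natural killer, 1), T-like (2), cDC2-like and cDC1-like (conventional dendritic, 5 and 6), Treg-like (regulatory T, 7), B and plasma-like (9), cycling-like (10), gamma-delta T-like (11) and mature DC-like (12). In cluster 5, 3 of 7 cDC2 markers were raised against the other cells, all 3 among its 10 leading genes. There 5 of 7 plasmacytoid dendritic markers were raised too, with 0 among the leading genes. In cluster 7, 7 of 7 Treg markers were raised, but so were 7 of 8 ILC2 markers. A Foxp3 UMI was found in 30.0% of its chow and 30.5% of its ketogenic cells. Levels of both clusters are those of all their cells. The cycling-like cluster mixed lineages: cells with more lymphoid than conventional dendritic marker UMIs were 31.7% of it in chow and 62.3% in ketogenic cells. This split was chosen after the data were seen. The cluster's pooled levels of Oxct1, Acat1, Slc16a1 and Slc16a3 are therefore given below with those of the parts, while counts of clusters use the pooled values.

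A level below is the UMIs of a gene in all cells of a cluster and library, scaled as CPM to the UMIs of that cluster and library, with an exact Poisson 95% interval. Levels were compared between clusters and libraries but not between genes, because transcript length was not taken into account. Over all clustered cells the members had 57 and 178 UMIs (Bdh1, chow and then ketogenic), 984 and 1188 (Oxct1), 1121 and 1793 (Acat1), 127 and 192 (Slc16a1), 615 and 418 (Slc16a3), and 162 and 43 (Hcar2). Bdh1, Slc16a1 and Hcar2 were therefore sparse, and their levels in small clusters rest on a few UMIs.

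**Figure D1:**
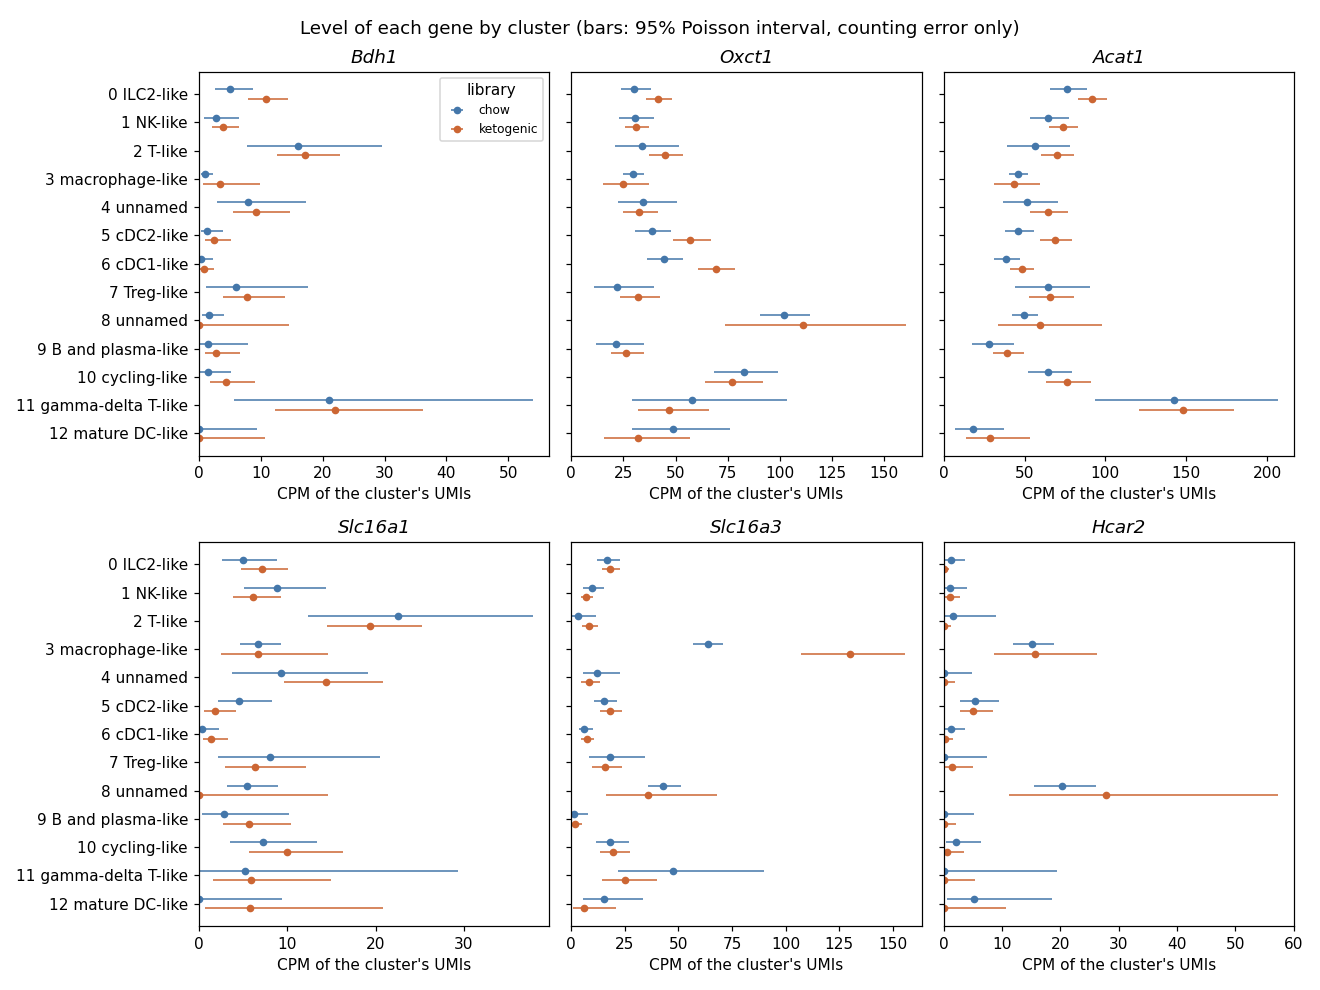
Level (CPM, x axis) of each gene in each of the 13 clusters (y axis) for the chow and ketogenic libraries; points are levels from summed UMIs and bars the 95% Poisson interval. Hcar2 stands out in clusters 3 and 8, Acat1 in cluster 11, Oxct1 in clusters 8 and 10, and the ketogenic value of Slc16a3 in cluster 3 (130 CPM) lies above the chow value (63.6 CPM).

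Bdh1 encodes 3-hydroxybutyrate dehydrogenase, the mitochondrial enzyme that turns 3-hydroxybutyrate into acetoacetate. The gene (ENSMUSG00000046598) lies at chr16:31422280-31458901 on the plus strand of GRCm38, and an antisense gene that overlaps it, Gm15743, had 6 UMIs. Bdh1 was highest in clusters with T cell genes and in the ILC2-like cluster. The gamma-delta T-like cluster was at 21.1 CPM in chow (interval 5.74 to 53.9, 4 UMIs) and 22.0 in ketogenic cells (12.3 to 36.3, 15 UMIs). Of the 4 chow UMIs 2 were in 1 cell, and without that cell the chow level was 10.7 CPM, below the T-like cluster. The T-like cluster was at 16.1 and 17.2 CPM, the unnamed cluster 4 at 7.96 and 9.28, and the ILC2-like cluster at 5.05 and 10.8. These 4 levels were above those of the cDC1-like, cDC2-like and macrophage-like clusters in both libraries. In the Treg-like cluster Bdh1 was at 6.02 and 7.78 CPM, in the NK-like cluster at 2.78 and 3.89, and in the B and plasma-like cluster at 1.42 and 2.85. Against the other cells of its library the NK-like cluster was at 1.05-fold (0.326 to 2.60) in chow and 0.529-fold (0.283 to 0.913) in ketogenic cells. The B and plasma-like cluster was at 0.522-fold (0.0130 to 3.03) and 0.397-fold (0.127 to 0.944). Both were below the rest by more than counting error in the ketogenic library but not in chow. The rest was itself at 2.66 and 7.36 CPM for the NK-like cluster and at 2.71 and 7.18 for the B and plasma-like cluster. It holds different shares of the clusters in each library, so ratios to the rest were not read as differences between diets. In the cDC1-like cluster it was at 0.410 and 0.861 CPM, and in the mature DC-like cluster no UMI was found, which allows up to 7.70 CPM in chow and 8.67 in ketogenic cells (3 counts). Against all other clustered cells of the same library, clusters 0, 2 and 11 were higher and cluster 6 lower in both libraries with intervals that excluded 1. The T-like cluster was 7.09-fold (3.20 to 14.2) above the rest in chow and 3.06-fold (2.15 to 4.29) in ketogenic cells. Its rest was at 2.27 CPM in chow and 5.63 in ketogenic cells. None of the 12 pairs of neighbouring clusters in the order of Bdh1 levels was separated in both libraries.

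Oxct1 encodes succinyl-CoA:3-ketoacid CoA transferase, the step that commits acetoacetate to oxidation and that liver cells lack. The gene (ENSMUSG00000022186) lies at chr15:4026383-4155344 on the plus strand, and of 2 overlapping genes on the other strand 1 was listed, with 0 UMIs. Oxct1 was present in every cluster and did not follow the order of Bdh1. It was highest in the unnamed cluster 8, at 102 CPM in chow (90.7 to 114) and 111 in ketogenic cells (73.9 to 161). The cycling-like cluster was next at 82.7 and 77.2 CPM, and its intervals excluded 1 against all other cells in both libraries, as did those of cluster 8. Its lymphoid part had 62.2 and 64.2 CPM and its dendritic part 88.5 and 90.7. Cluster 8 held 30.2% of all clustered Oxct1 UMIs in chow and 2.36% in ketogenic cells, while its ratio to the other cells of the library was 2.74 (2.38 to 3.14) and 2.45 (1.62 to 3.57). The cDC1-like cluster had 44.3 and 69.2 CPM, the cDC2-like cluster 38.5 and 57.2, and the gamma-delta T-like cluster 57.9 and 46.9. These dendritic and gamma-delta T-like values lay below those of cluster 8. The mature DC-like cluster had 48.8 and 31.8 CPM and the T-like cluster 33.8 and 44.8. The ILC2-like, NK-like, macrophage-like and unnamed 4 clusters lay between 24.6 and 41.7 CPM. The Treg-like and the B and plasma-like clusters were the lowest on average, at 22.1 and 31.8 CPM and at 21.2 and 26.2 CPM. The macrophage-like cluster 3, at 29.5 and 24.6 CPM, was thus below cluster 8, although both are rich in myeloid genes. Clusters 1, 3, 7 and 9 were below the other cells in both libraries, and no neighbouring pair in the order was separated in both.

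Acat1 encodes mitochondrial acetoacetyl-CoA thiolase, which splits acetoacetyl-CoA and also serves isoleucine breakdown. The gene (ENSMUSG00000032047) lies at chr9:53580522-53610382 on the minus strand, with no other annotated gene over it. Acat1 was highest in the gamma-delta T-like cluster, at 142 CPM in chow (93.7 to 207, 27 UMIs) and 148 in ketogenic cells (121 to 180, 101 UMIs). It was above the next cluster, the ILC2-like one, by 1.86-fold (1.19 to 2.79) in chow and 1.61-fold (1.28 to 2.01) in ketogenic cells, the 1 neighbouring pair of 12 separated in both libraries. The ILC2-like cluster had 76.5 and 91.8 CPM, 1.55-fold (1.31 to 1.81) and 1.42-fold (1.26 to 1.58) above all other cells. The cycling-like cluster had 64.6 and 76.5 CPM, with 94.9 and 84.8 in its lymphoid part and 55.9 and 68.3 in its dendritic part. The NK-like cluster had 64.5 and 73.7 CPM, the Treg-like 64.2 and 65.7 and the T-like 56.3 and 70.0. The lymphoid clusters other than B and plasma-like were therefore all at 51.8 CPM or more. Cluster 8 had 49.8 and 59.5 CPM, the cDC2-like cluster 46.2 and 69.1, and the macrophage-like cluster 45.9 and 43.7. The cDC1-like cluster had 38.5 and 48.2 CPM, the B and plasma-like cluster 28.3 and 39.3, and the mature DC-like cluster 18.0 and 28.9. Clusters 3, 6, 9 and 12 were below the rest in both libraries. Within cluster 9, cells with more B than plasma marker UMIs had 58.4 and 56.7 CPM and those with more plasma marker UMIs 20.1 and 24.4, so that the B part was 2.91-fold (1.06 to 7.71) and 2.33-fold (1.38 to 4.02) higher. The B part was 51.2% of the cluster's cells in chow and 77.6% in ketogenic cells. Within cluster 11, the cells with a Trdc UMI had 165 and 175 CPM of Acat1 and those without 78.8 and 118, and the ratio between them had an interval that included 1 in both libraries.

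The diet comparison asked whether these genes differed in level between leukocytes of mice on the ketogenic diet and on chow. A ratio was read at 20 or more UMIs over both libraries in a cluster, and past 2-fold is used as the mark of size. Of 78 pairs of a member and a cluster, 48 had enough UMIs and 3 were past 2-fold (6.25%), all higher in ketogenic cells, while 9.79% of all gene and cluster pairs were past 2-fold in either direction. The members' share is thus not above that of genes at large. The direction depended on the setting: Slc16a3 in the gamma-delta T-like cluster, at a log2 ratio of -0.96, passed 2-fold lower in some alternatives. It was at -1.04 with the same lowest UMI count per cell in both libraries and at -1.02 with the median of all genes set to 0. In 34 of the 48 pairs (70.8%) the ketogenic value was the higher, against 55.9% of all gene and cluster pairs. With the median of all genes of each cluster set to 0, so that by construction as many genes are higher as lower, 28 of the 48 (58.3%) were higher. In 7 (14.6%) the interval excluded 1, against 21.1% of all pairs, so that this share too is not above that of genes at large.

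**Figure D2:**
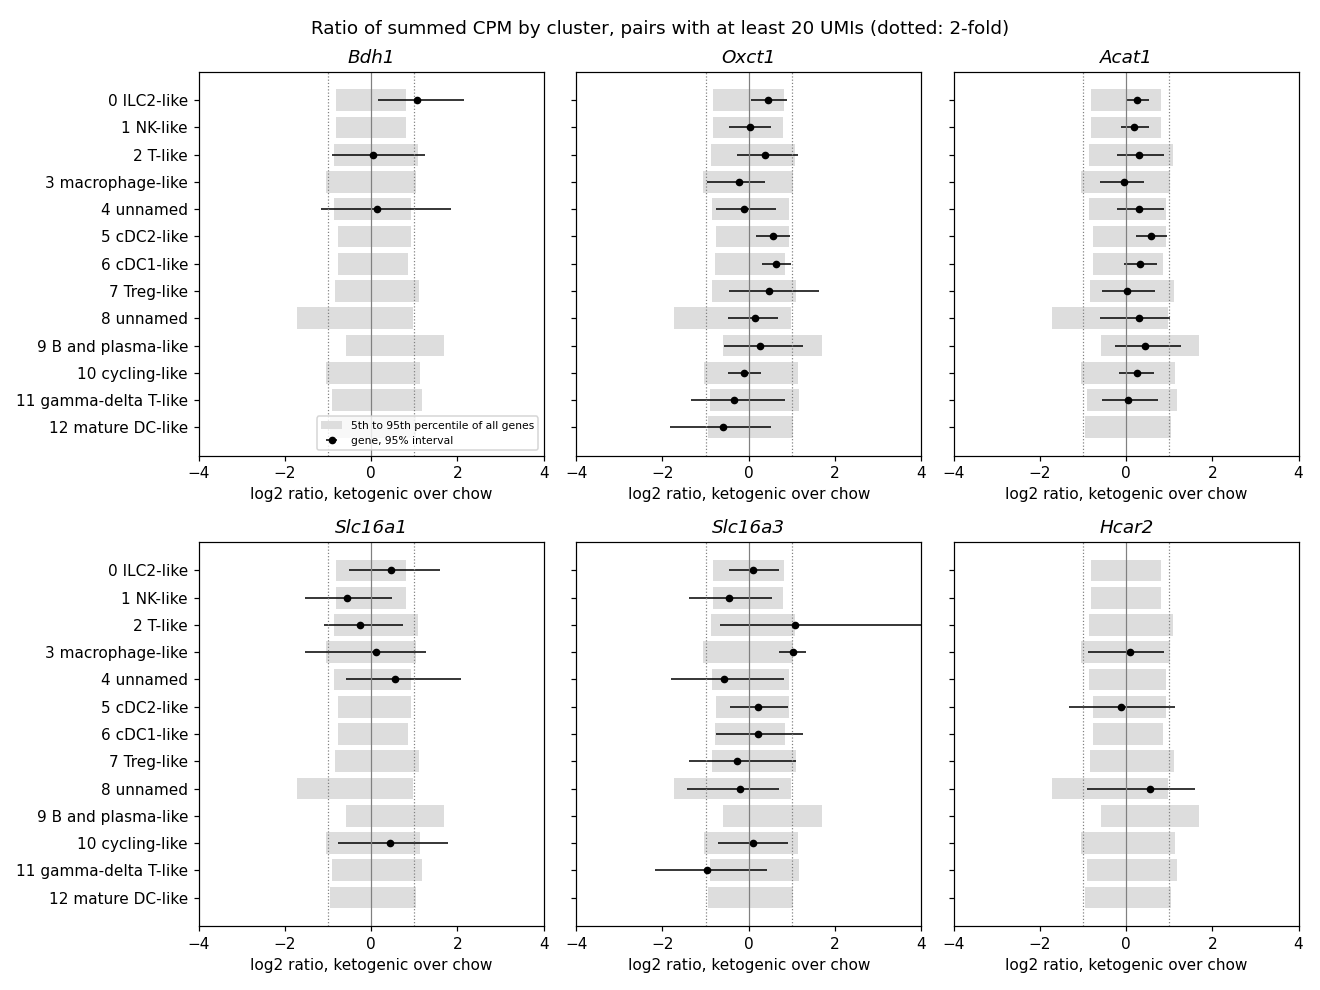
Log2 ratio of CPM, ketogenic over chow (x axis), of each gene in each cluster (y axis) where at least 20 UMIs were found; black bars are 95% counting intervals, grey bars hold the middle 90% of all genes of that cluster and dotted lines mark 2-fold. Points past the dotted line are Bdh1 in cluster 0 and Slc16a3 in clusters 2 and 3; the upper bound of Slc16a3 in cluster 2 runs off the axis.

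For the enzymes, the 1 ratio past 2-fold was Bdh1 in the ILC2-like cluster. It had 12 UMIs in 854 chow cells and 47 in 1310 ketogenic cells, 5.05 (2.61 to 8.81) against 10.8 (7.92 to 14.3) CPM, a log2 ratio of 1.05 and a ratio of 2.14 (1.12 to 4.43). In that cluster 5.94% of genes were past 2-fold, and the median depth was 2610.5 UMIs per cell in chow and 3133 in ketogenic cells. With the same lowest UMI count per cell required of both libraries the log2 ratio was 0.88, under 2-fold. With the cluster's median over all genes set to 0 it was 0.997, just under 2-fold. The share of ILC2-like cells with a Bdh1 UMI was 1.41% (0.728 to 2.44, exact binomial) in chow and 3.44% (2.52 to 4.57) in ketogenic cells, and 0.463% and 1.09% after thinning each cell to 1000 UMIs. In the cDC1-like cluster, as background, it was 0.326% and 0.845% at median depths of 7906 and 9922 UMIs. In the T-like cluster, where Bdh1 had 10 and 48 UMIs, the log2 ratio was 0.04, with a ratio interval of 0.535 to 2.37. The ILC2-like value was thus not seen at the same size in the T-like cluster, but the intervals of both ratios overlap.

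Oxct1 had enough UMIs in all 13 clusters, was past 2-fold in 0 of them and was higher in ketogenic cells in 8, or in 6 with each cluster's median over all genes set to 0. Its interval excluded 1 in the ILC2-like cluster (30.3 against 41.7 CPM, ratio 1.38, 1.04 to 1.84), the cDC2-like cluster (38.5 against 57.2, ratio 1.48, 1.13 to 1.95) and the cDC1-like cluster (44.3 against 69.2, ratio 1.56, 1.24 to 1.98). Acat1 was past 2-fold in 0 of 12 clusters with enough UMIs and higher in ketogenic cells in 11, or in 8 with each cluster's median over all genes set to 0. Its interval excluded 1 in the cDC2-like cluster (46.2 against 69.1 CPM, ratio 1.49, 1.17 to 1.92) and the ILC2-like cluster (76.5 against 91.8, ratio 1.20, 1.004 to 1.44). The macrophage-like cluster was lower under both scalings, at 45.9 against 43.7 CPM, but its log2 ratio was 0.01 from the mean over cells of CPM. Split by complement C1q as described below, its cells without a C1q UMI were at -0.45 and those with a C1q UMI at 0.55. The Treg-like, B and plasma-like and gamma-delta T-like clusters were lower once the median was set to 0. In the B and plasma-like cluster that median was 0.50, and the log2 ratio of Acat1 was -0.10 in its B part and 0.25 in its plasma part. In the cycling-like cluster the log2 ratio of Acat1 was 0.24 in the pooled cells, -0.18 in the lymphoid part and 0.29 in the dendritic part. That of Oxct1 was -0.10, 0.02 and 0.04 in the same order. The ketogenic value was thus above chow by more than counting error for all 3 enzymes in the ILC2-like cluster, for Oxct1 and Acat1 in the cDC2-like cluster and for Oxct1 in the cDC1-like cluster. In these 3 clusters 27.6%, 22.9% and 23.6% of all genes had an interval that excluded 1 in either direction, and the median log2 ratio of all genes was 0.06, 0.04 and 0.07. With the median of the ILC2-like cluster set to 0, the log2 interval of Acat1 there ran from -0.05 to 0.47 and included 0. Markers of other cells moved in the same clusters. In the cDC2-like cluster 7 of 7 CD4 T cell markers were higher in ketogenic cells (summed 97.5 against 403 CPM), as were 7 of 7 CD8 T cell markers (109 against 433), with none at 0. In the cDC1-like cluster 7 of 7 and 6 of 7 were higher (61.9 against 202 and 67.6 against 209 CPM). In the ILC2-like cluster 4 of 5 red cell markers were higher (121 against 602 CPM, 2 and 1 at 0) and 0 of 10 macrophage markers (163 against 46.1 CPM). Of 7 neutrophil markers 1 was higher there (119 against 9.18 CPM, 1 and 1 at 0). The part of these in the enzyme ratios was not tested.

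Of the carriers, Slc16a1 encodes MCT1, which takes up ketone bodies and lactate in many cell types. The gene (ENSMUSG00000032902) lies at chr3:104638668-104658462 on the plus strand, and 2 intronic genes on the same strand were not listed in the matrices. Slc16a1 was highest in the T-like cluster, at 22.5 CPM in chow (12.3 to 37.8, 14 UMIs) and 19.4 in ketogenic cells (14.5 to 25.3, 54 UMIs), 4.13-fold (2.19 to 7.22) and 3.24-fold (2.32 to 4.47) above the rest. Unnamed cluster 4 followed at 9.29 and 14.4 CPM and the cycling-like cluster at 7.25 and 10.0. Cluster 4 was above the rest in ketogenic cells (2.11-fold, 1.36 to 3.16), while in chow the interval included 1 (1.59-fold, 0.628 to 3.39). The cycling-like value pools a lymphoid part at 16.4 and 16.95 CPM with a dendritic part at 4.66 and 2.63, and the ratio between the parts was 3.51 (0.808 to 15.3) in chow and 6.45 (1.48 to 58.5) in ketogenic cells. The NK-like, Treg-like, macrophage-like, ILC2-like and gamma-delta T-like clusters lay between 5.05 and 8.90 CPM in both libraries. The B and plasma-like cluster had 2.83 and 5.69 CPM and the cDC2-like cluster 4.53 and 1.81. The cDC1-like cluster was the low extreme, with 1 UMI in 307 chow cells and 5 UMIs in 355 ketogenic cells, 0.410 and 1.44 CPM, and was below the rest in both libraries although its median depths were 7906 and 9922 UMIs per cell. In cluster 8 Slc16a1 had 16 UMIs in chow (5.50 CPM) and 0 in ketogenic cells, which allows 11.9 CPM, and in cluster 12 it had 0 UMIs in chow, which allows 7.70 CPM, and 2 in ketogenic cells. Of 6 clusters with enough UMIs, 4 were higher in ketogenic cells, 0 were past 2-fold and 0 intervals excluded 1. One of the 4 was the cycling-like cluster, where the log2 ratio was 0.44 in the pooled cells but -0.04 in the lymphoid part and -0.64 in the dendritic part, from 5 chow UMIs in each and 14 and 2 ketogenic UMIs.

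Slc16a3 encodes MCT4, the carrier of glycolytic cells that exports lactate and a known target of the hypoxia factor HIF-1. The gene (ENSMUSG00000025161) lies at chr11:120948480-120960868 on the plus strand, with no other annotated gene over it. It was highest in the macrophage-like cluster, at 63.6 CPM in chow (56.9 to 70.9, 323 UMIs) and 130 in ketogenic cells (107 to 156, 116 UMIs). Cluster 8 was next on average at 42.9 and 35.7 CPM, below cluster 3 by 1.48-fold (1.20 to 1.84) in chow and 3.64-fold (1.85 to 8.15) in ketogenic cells. The gamma-delta T-like cluster had 47.4 (21.7 to 90.0, 9 UMIs) and 24.9 CPM (14.5 to 39.9, 17 UMIs). The cycling-like, ILC2-like, Treg-like and cDC2-like clusters lay between 15.4 and 19.4 CPM in both libraries. The cycling-like value pools a lymphoid part at 29.5 and 20.6 CPM with a dendritic part at 14.9 and 18.4. The mature DC-like cluster had 15.4 and 5.78 CPM, and the unnamed cluster 4 had 11.9 and 8.25. The NK-like, cDC1-like and T-like clusters were low, at 9.45 and 6.95, 6.15 and 7.18, and 3.22 and 8.25 CPM, and the B and plasma-like cluster lowest, at 1.42 and 1.71. The T-like cluster, which led for Slc16a1, was thus among the lowest for Slc16a3, and these 4 clusters and cluster 4 were below the rest in both libraries.

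Slc16a3 in the macrophage-like cluster was the best counted of the 3 member ratios past 2-fold. Its CPM was 2.04-fold higher (1.64 to 2.53) in ketogenic than in chow cells, a log2 ratio of 1.03, where 10.8% of genes in that cluster were past 2-fold. The share of cells with a UMI was 26.1% (23.2 to 29.2) of 859 chow cells and 39.3% (31.3 to 47.8) of 145 ketogenic cells at median depths of 5543 and 5589 UMIs, and 5.95% and 12.2% after thinning. In the B and plasma-like cluster, taken as background, the share was 1.22% in both libraries, at median depths of 5806 and 4192. Split by complement C1q transcripts, a split chosen after the data were seen, cells of cluster 3 without a C1q UMI had 77.1 CPM in chow (66.5 to 88.9) and 160 in ketogenic cells (130 to 195), a ratio of 2.08 (1.61 to 2.66). Cells with a C1q UMI had 51.0 (42.8 to 60.4) and 61.9 CPM (36.0 to 99.1), a ratio of 1.21 (0.686 to 2.02). The 2-fold ratio was thus found in the cells without C1q, which were 51.5% of the cluster in chow and 73.1% in ketogenic cells, while the intervals of both ratios overlap. Without the cell with the most Slc16a3 UMIs in each library, or with the cluster's median over all genes set to 0, the log2 ratio was 0.98, just under 2-fold. With that cluster, 7 of 7 monocyte markers were higher in ketogenic cells (summed 22480.5 against 26986 CPM), as were 4 of 10 macrophage markers (6082 against 7410 CPM). Of 7 neutrophil markers 1 was higher (306 against 59.3 CPM, 1 and 2 at 0). Of 7 CD4 T cell markers 7 were higher (121 against 230 CPM), of 7 CD8 T cell markers 5 (119 against 221, 0 and 1 at 0) and of 8 NK markers 7 (81.1 against 218, 0 and 1 at 0). Of 8 adipocyte and stromal markers 2 were higher (56.5 against 138 CPM in sum, 2 and 6 at 0), and Egr1, an immediate early gene, was at 453 and 86.2 CPM; the part of these in the Slc16a3 ratio was not tested. Slc16a1, measured in the same cells, was at 6.69 and 6.72 CPM.

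**Figure D3:**
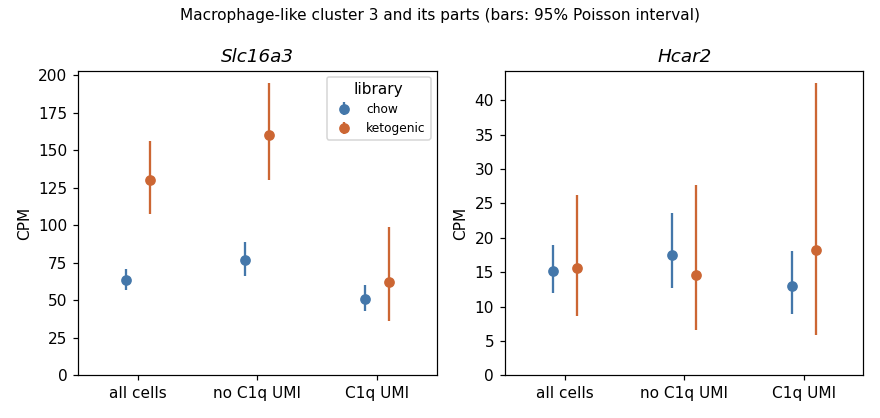
CPM (y axis) of Slc16a3 and Hcar2 in all cells of the macrophage-like cluster 3 and in its cells without and with a C1q UMI, for both libraries; bars are 95% Poisson intervals. Slc16a3 bars of the libraries are apart in all cells and in cells without C1q (77.1 and 160 CPM) and overlap in cells with C1q, and those of Hcar2 overlap throughout.

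The other Slc16a3 ratio past 2-fold was in the T-like cluster, from 2 UMIs in chow and 23 in ketogenic cells (log2 ratio 1.07), with a ratio interval of 0.634 to 22.4 that includes 1, where 9.83% of genes were past 2-fold. In the other 9 clusters with enough UMIs the log2 ratio lay between -0.96 (gamma-delta T-like) and 0.22 (cDC2-like), and each interval included 1. In 5 of the 11 clusters with enough UMIs Slc16a3 was lower in ketogenic cells.

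Slc16a3 was past 2-fold in the macrophage-like cluster and its paralog Slc16a1 was not, though the ratio intervals overlap (1.64 to 2.53 and 0.344 to 2.42). For this comparison the bases before the starts of both genes are shown, from RefSeq on GRCm38.p6, as the stretch where HIF-1 motifs would be looked for. Capitals mark ACGTG, the core of the hypoxia response element, on either strand. The Slc16a1 stretch is chr3:104638414-104638663 and holds the 250 bases before the RefSeq start; the Slc16a3 stretch is chr11:120948817-120949052, ends before the nearest annotated exon and lies in the first intron of a longer annotated transcript. Both are on the plus strand.
Slc16a1: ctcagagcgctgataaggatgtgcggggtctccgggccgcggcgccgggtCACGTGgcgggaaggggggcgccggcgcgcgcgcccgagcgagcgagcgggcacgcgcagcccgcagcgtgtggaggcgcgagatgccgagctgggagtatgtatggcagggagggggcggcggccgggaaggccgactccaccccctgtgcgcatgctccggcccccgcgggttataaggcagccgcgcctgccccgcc
Slc16a3: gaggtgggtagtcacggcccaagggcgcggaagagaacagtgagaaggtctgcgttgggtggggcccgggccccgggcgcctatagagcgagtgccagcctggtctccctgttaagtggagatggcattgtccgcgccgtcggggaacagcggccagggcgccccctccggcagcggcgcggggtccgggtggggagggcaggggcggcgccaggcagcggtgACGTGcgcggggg
In the Slc16a1 stretch the core is found 2 times, 1 on each strand, overlapping in a CACGTG (E-box) that begins 200 bases before the start. In the Slc16a3 stretch it is found 1 time, 27 bases before the start. The full 250 bases before the Slc16a3 start hold it 2 times, as many as those of Slc16a1, so that the count of the core does not set the genes apart. Of 32851 promoter windows of the 250 bases before a RefSeq start, 16.6% hold ACGTG on either strand at least once and 6.02% hold CACGTG. The related core GCGTG is found 2 times in the Slc16a1 stretch and 0 times in that of Slc16a3, and 28.2% of windows hold it. A match is a description of letters and not a site in use. RefSeq windows were at hand for 4 of the 6 genes.

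Hcar2 encodes the hydroxycarboxylic acid receptor GPR109A, the member that senses 3-hydroxybutyrate. The gene (ENSMUSG00000045502) lies at chr5:123863570-123865499 on the minus strand, with no other annotated gene over it. It was best counted in 3 myeloid clusters. Unnamed cluster 8 had 20.3 CPM in chow (15.4 to 26.1, 59 UMIs) and 27.8 in ketogenic cells (11.2 to 57.3, 7 UMIs). The macrophage-like cluster had 15.2 (11.96 to 18.9, 77 UMIs) and 15.7 CPM (8.57 to 26.3, 14 UMIs), and the cDC2-like cluster 5.44 (2.81 to 9.50, 12 UMIs) and 5.07 (2.77 to 8.50, 14 UMIs). Cluster 3 was above the cDC2-like cluster by 2.79-fold (1.51 to 5.63) and 3.09-fold (1.37 to 7.002), the 1 neighbouring pair separated in both libraries, and clusters 8 and 3 were not separated. The other 10 clusters had 0 to 4 UMIs each in a library. The mature DC-like cluster had 2 UMIs in chow, 5.13 CPM (0.622 to 18.5), about the cDC2-like level but with a wide interval, and 0 in ketogenic cells, which allows 8.67 CPM. Unnamed cluster 4, the B and plasma-like cluster and the gamma-delta T-like cluster had 0 UMIs in both libraries, which allows 3.98, 4.25 and 15.8 CPM in chow and 1.55, 1.71 and 4.40 in ketogenic cells. The ILC2-like cluster had 3 UMIs in chow and 0 in 1310 ketogenic cells. The NK-like cluster had 2 and 4 UMIs, 1.11 CPM in both libraries, and the Treg-like cluster 0 and 2. The 10 macrophage markers summed to 163 CPM in chow and 46.1 in ketogenic cells of the ILC2-like cluster, to 219 and 53.4 in the NK-like and to 217 and 72.1 in the Treg-like cluster; with so few UMIs, whether Hcar2 followed them was not read. These traces were not read as expression by lymphocytes.

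The share of macrophage-like cells with a Hcar2 UMI was 7.22% (5.58 to 9.16) in chow and 7.59% (3.85 to 13.2) in ketogenic cells, and 1.46% and 1.75% after thinning. In the ILC2-like cluster, as background, it was 0.351% in chow and 0 of 1310 in ketogenic cells, which allows up to 0.229% (median depths 2610.5 and 3133, against 5543 and 5589 in cluster 3). The Hcar2 ratio of ketogenic to chow cells was 1.03 (0.540 to 1.84) in the macrophage-like cluster, 1.37 (0.528 to 3.01) in cluster 8 and 0.931 (0.400 to 2.20) in the cDC2-like cluster. The cDC2-like value rests on few cells: 7 of its 14 ketogenic UMIs were in 1 cell, and without the cell with the most Hcar2 UMIs in each library the log2 ratio was -0.81 in place of -0.11. None was past 2-fold, and these intervals are too wide to show that the levels were alike. Cells with both a Slc16a3 and a Hcar2 UMI were 18 of 859 in chow and 6 of 145 in ketogenic cells of cluster 3.

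Summed over all clustered cells, Hcar2 and Slc16a3 looked different from their values within clusters. Hcar2 was at 7.59 CPM in chow (6.46 to 8.85) and 1.66 in ketogenic cells (1.20 to 2.24), 4.56-fold lower (3.24 to 6.55). Slc16a3 was at 28.8 (26.6 to 31.2) and 16.2 CPM (14.7 to 17.8), 1.78-fold lower (1.57 to 2.02). Clusters 3 and 8 held 84.0% of Hcar2 UMIs in chow and 48.8% in ketogenic cells, and their share of cells was lower in the ketogenic library. Had each cluster kept its chow level, the cluster sizes of the ketogenic library would have given 57.2 Hcar2 UMIs where 43 were found and 366 Slc16a3 UMIs where 418 were found. In the sum over cells, fewer cells of a type and less RNA per cell cannot be told apart, which is why each cluster was next given the same weight in both libraries, its mean share of cells.

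**Figure D4:**
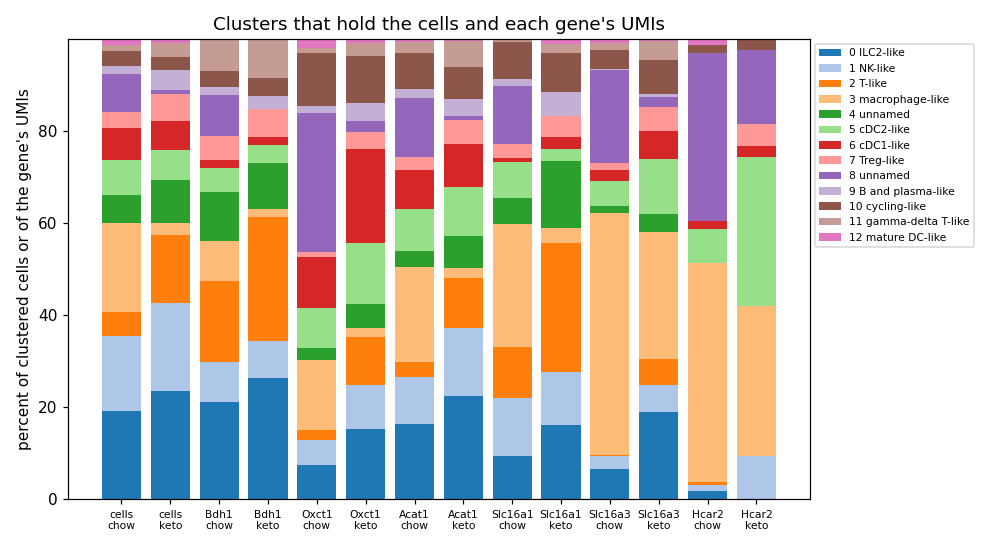
Percent (y axis) of clustered cells and of each gene's UMIs that fell in each of the 13 clusters (colours), for chow and ketogenic (keto) libraries (x axis). Cluster 3 held 47.5% of Hcar2 UMIs in chow and 32.6% in ketogenic cells, and 19.3% and 2.61% of cells.

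With equal weights, Hcar2 was at 3.78 CPM in chow (3.09 to 4.77) and 3.62 in ketogenic cells (2.42 to 5.28), a log2 ratio of -0.06 (-0.66 to 0.53). Slc16a3 was at 19.5 (17.6 to 21.8) and 26.1 CPM (23.1 to 29.4), a log2 ratio of 0.42 (0.19 to 0.64), against -0.83 in the plain sum, so that its direction depends on whether cluster sizes are held equal. Slc16a1 was at 7.75 and 7.58 CPM, a log2 ratio of -0.03 (-0.42 to 0.36), against 0.32 in the plain sum. For the enzymes, Bdh1 was at 4.93 (3.58 to 6.70) and 7.10 CPM (6.04 to 8.49), a log2 ratio of 0.52 (0.04 to 1.01) that was 1.36 in the plain sum. Oxct1 was at 37.4 (34.3 to 40.8) and 43.7 CPM (40.7 to 47.1), a log2 ratio of 0.23 (0.07 to 0.39) that was -0.01 in the plain sum. Acat1 was at 59.6 (55.3 to 64.2) and 70.3 CPM (66.6 to 74.3), a log2 ratio of 0.24 (0.11 to 0.37) that was 0.40 in the plain sum. The intervals of Bdh1, Oxct1, Acat1 and Slc16a3 lay above 0, and those of Slc16a1 and Hcar2 included 0. Such an interval excluded 0 for 43.7% of 12662 genes and lay above 0 for 26.1%, so it does not by itself set a gene apart. The Slc16a3 value was that of 1 cluster: without the macrophage-like cluster its log2 ratio was -0.08 (-0.37 to 0.21), while Oxct1 and Acat1 were at 0.27 (0.10 to 0.43) and 0.26 (0.13 to 0.40). The Bdh1 interval reached below the median of all genes. It included 0 with the same lowest UMI count per cell in both libraries (0.33, -0.17 to 0.82), without the macrophage-like cluster (0.48, -0.01 to 0.97) and without the 5% of cells with the most UMIs (0.47, -0.02 to 0.96). All were under 2-fold, a mark that 5.09% of 12678 genes passed, and the median log2 ratio of all genes was 0.06.

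**Figure D5:**
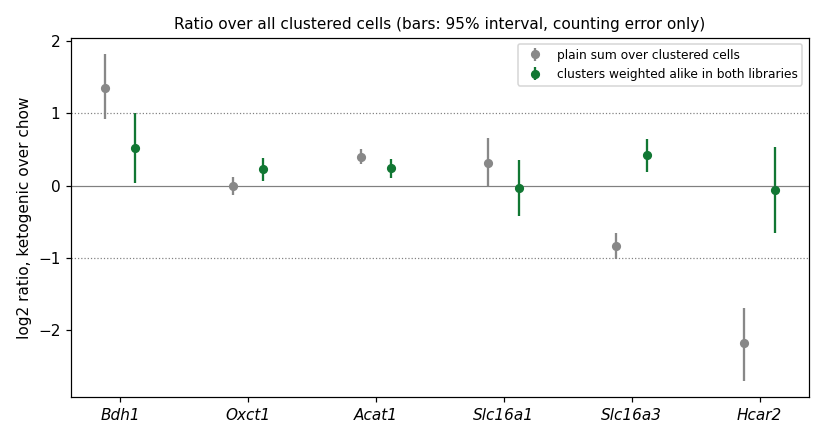
Log2 ratio, ketogenic over chow (y axis), of each gene (x axis) from plain sums over clustered cells and with clusters weighted alike in both libraries; bars are 95% counting intervals and dotted lines mark 2-fold. Hcar2 and Slc16a3 move most, from -2.18 to -0.06 and from -0.83 to 0.42, and Slc16a3, Slc16a1 (0.32 to -0.03) and Oxct1 (-0.01 to 0.23) change sign.

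Other genes of the pathway, from lists chosen with earlier results of these data known, were read with the same weights. With these weights the median log2 ratio of all genes was 0.06 and 5.09% of genes were past 2-fold. Of 7 genes of ketone body use, 4 had enough UMIs, 0 were past 2-fold and the median log2 ratio was 0.23, and the fourth of them, Aacs, which uses acetoacetate in the cytosol, was at 6.91 and 6.88 CPM. The testis paralogs Oxct2a and Oxct2b had 1 and 0 UMIs. The list of 10 genes of monocarboxylate transport also holds lactate dehydrogenase genes. All 10 had enough UMIs, 0 were past 2-fold, 8 were higher in ketogenic cells and the median was 0.17, beside 0.06 for all genes. Over single gene and cluster pairs, without these weights, 55.9% were higher. The share of all genes that were higher with the weights was not computed.

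Of 7 receptors for hydroxycarboxylic and fatty acids, 5 had enough UMIs, with a median log2 ratio of -0.17. The 1 past 2-fold was Ffar1, with 29 UMIs in all, beside 5.09% of all genes. Hcar1, a lactate receptor, and Ffar3, a receptor of short-chain fatty acids, had 0 UMIs in both libraries. The 8 genes of the succinyl-CoA and citrate steps supply the coenzyme A donor of Oxct1 and take up its product. Of these, 0 were past 2-fold, 7 were higher in ketogenic cells and the median was 0.31, beside 0.06 for all genes. The share of 55.9% higher is again that of single gene and cluster pairs without these weights. The 3 genes of cytosolic acetoacetyl-CoA and sterol entry had a median of -0.21 and 0 past 2-fold. Of 10 HIF-1 targets 0 were past 2-fold and the median was -0.05. In the macrophage-like cluster, looked at because Slc16a3 passed 2-fold there, 9 of them had enough UMIs. Slc2a1, a glucose carrier, was past 2-fold higher there (14.0 against 32.5 CPM) and Pdk1 lower (4.73 against 1.12), 2 of 9 beside the 10.8% of all genes. Of the 9, 5 were higher and 4 lower, with a median of 0.08 beside 0.06 for all genes. Of 13 dissociation and immediate early genes, Hspa1a was past 2-fold higher (41.8 against 122 CPM, log2 ratio 1.55) and Egr1 past 2-fold lower (235 against 106 CPM, log2 ratio -1.15), 2 of 13 beside 5.09% of all genes. The median was 0.05.

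To see which genes share the members' distribution, log2(CPM + 20) was correlated over the 26 sums of cluster and library, as a description: the points share libraries and depth. Bdh1 was most like Icos (Pearson r 0.94), a T cell costimulator, Abhd8 (0.91) and Kbtbd11 (0.90). Acat1 was most like Sptssa (0.91), Ech1 (0.90), an enzyme of fatty acid oxidation, and Stk24 (0.89). Both genes and these 6 peaked in the gamma-delta T-like cluster in both libraries, and Bdh1 and Acat1 had r of 0.74 with each other. Oxct1 was set apart, with r of -0.11 to Bdh1 and 0.20 to Acat1, and its nearest genes, Slmo2 (0.78), Sdhd (0.75), a subunit of succinate dehydrogenase, and Dnajc2 (0.75), were less like it than the nearest genes of the other 5 members were like theirs.

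Slc16a1 was most like Agfg1 (0.90), Ehd3 (0.85) and Twistnb (0.84), all highest in the T-like cluster. Slc16a3 was most like Vill (0.87), Osm (0.87), a cytokine gene of myeloid cells, and Cndp2 (0.87), all highest in the macrophage-like cluster. The carriers had r of -0.14 with each other. Hcar2 was most like Daglb (0.95), an enzyme of endocannabinoid synthesis, Pilrb2 (0.94) and Hmox1 (0.94), which degrades haem, and among members was nearest to Slc16a3 (0.68). By ranks (Spearman) 7 of these 18 correlations moved by 0.1 or more. For Hcar2, Daglb was at 0.60 and in place 457 of 8488 genes, and Pilrb2 at 0.74 and in place 75. For Slc16a1, Ehd3 was at 0.73 and in place 106. For Slc16a3, Vill was at 0.73 and in place 59 and Cndp2 at 0.70 and in place 96. For Oxct1, Slmo2 was at 0.67 and in place 9 and Sdhd at 0.64 and in place 20. These neighbours thus depend on the measure. In single cells, UMIs of Bdh1, Oxct1 and Acat1 were found together in 5 of 4458 chow cells and 11 of 5559 ketogenic cells. Oxct1 was found with Acat1 in 232 and 337, or 5.20% and 6.06%. Bdh1 had a UMI in 1.26% of chow and 3.13% of ketogenic cells, which limits the joint count. How many cells express the whole oxidation route cannot be read from it.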

How the data were processed

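UMI counts per gene and cell were deposited by the authors for 2 libraries, 1 per diet, not normalised, with a table of 13 clusters (resolution 0.5, per the file headers). The submitters' processing notes name mm10, Cell Ranger and Seurat; versions and the rule for calling cells are not given in the sources used here. Per library and cluster, UMIs were summed and given as CPM (python 3.11.15, numpy 2.4.6, scipy 1.17.1, pandas 2.3.3). Ratios are ketogenic over chow with 0.5 added to each count on the log2 scale, read where a gene had 20 or more UMIs in the libraries together. Intervals (95%) are exact Poisson for a level, exact conditional for a ratio, gamma for a weighted level, normal on the log scale for a weighted ratio, and exact binomial for a share of cells. A count of 0 allows 3 counts. With 1 library per diet no test was made and no p-value computed. Thinning used the exact hypergeometric expectation at 1000 UMIs and left out no cell. No doublet caller was run; an alternative left out the 5% of cells with the most UMIs. At least 3 raised markers were needed to call a cluster X-like, but this did not by itself fix the name. Cluster 4 had 5 of 7 CD4 and 5 of 7 CD8 T cell markers raised and was left unnamed. Some named clusters, such as 5 and 7, also had 3 or more raised markers of another class. The 87 chow and 55 ketogenic cells outside the cluster table were left out of clusters. Positions are from GENCODE M21. Named genes are the members, list genes with at least 100 UMIs past 2-fold with weights, and the 3 genes most like each member among those with at least 100 UMIs in each library; Aacs, Oxct2a, Oxct2b, Hcar1, Ffar1, Ffar3, Slc2a1 and Pdk1 were named after their values were seen. The members and lists were chosen with earlier results of these data known. One of the lists is not reported here.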

Additional observations from a re-analysis of the deposited data

Results flagged for a closer look

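UMIs of 4 members were found in cells outside the authors' cluster table, at more than the 3 counts that a 0 allows. Oxct1 had 10 UMIs in the 87 chow cells and 4 in the 55 ketogenic cells. Acat1 had 10 and 13 UMIs. Slc16a1 had 5 UMIs in the ketogenic cells, and Slc16a3 had 7 in the chow cells. These cells hold 222276 and 175597 UMIs in all.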

How the results depend on the processing

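With plain sums over clustered cells in place of equal cluster weights, the log2 ratios were 1.36 for Bdh1, -0.0052 for Oxct1, 0.40 for Acat1, -0.83 for Slc16a3 and -2.18 for Hcar2, and over all cells of the matrices 1.36, -0.0098, 0.40, -0.84 and -2.19. Slc16a1 moved by less than its interval. Without the macrophage-like cluster 3 the Slc16a3 ratio was -0.0802, and the other members stayed within their intervals. The other 8 alternatives kept all 6 weighted ratios within their intervals. Of 394 ratios by cluster under alternatives, 392 stayed within the interval of the reported value and 2 did not, Slc16a3 (0.31) and Acat1 (0.55) in the cluster 3 cells with a C1q UMI. Many of these intervals are wide, and 367 of the 394 kept the sign of the reported value. Between 2 and 4 of 48 pairs were past 2-fold in each alternative, but not always the same pairs nor all higher in ketogenic cells. With the same lowest UMI count the 2 pairs were Slc16a3 in the macrophage-like (1.03) and gamma-delta T-like (-1.04) clusters. With each cluster's median over all genes set to 0 they were Slc16a3 in the T-like (1.001) and gamma-delta T-like (-1.02) clusters. The level of each member in its leading cluster in each library, 12 in all, stayed within its interval under 3 alternatives, although Bdh1 in the gamma-delta T-like chow cells went from 21.1 to 10.7 CPM without 1 cell; other levels were not run again. Single genes rest on few UMIs in small clusters, so a ratio near 2-fold passes or misses that mark with the setting. No paired analysis was possible because each diet has 1 library.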
